A study of Mus musculus with 24 samples.

Results

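The genes flanking *Rps6* on mouse chromosome 4 were examined as 8 named members, *Acer2*, *Dennd4c*, *Haus6*, *Plin2*, *Slc24a2*, *Mllt3*, *C630043F03Rik* and *Cyp2j9*, which are 8 of the 24079 genes of the table. They were chosen by symbol, as genes around the locus altered in these mice, with their differences between genotypes in view. Their genotype values are therefore given as a description, without a test, and the question asked of them was whether a difference between genotypes was shared by both brain regions and both RNA fractions. Mice were rpS6 knockin, homozygous for a germline allele in which the phosphorylatable serines of ribosomal protein S6 are replaced by alanines in every cell, or wild-type littermates from crosses of heterozygous mice on a mixed C57Bl/6/Sv129/ICR background. The nucleus accumbens (Nac) and the dorsal striatum (DStr) were dissected, the tissue of several mice was pooled for each replicate, mice of both sexes being used, and RNA was taken from the whole lysate (total) and from sucrose gradient fractions with the heaviest polysomes (heavy). Each combination of region, fraction and genotype held 3 libraries, 24 in all, and no treatment was given. Ages were not given in the sources used here, and the mice share no other engineered allele in the labels.

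An allele made by gene targeting is inherited with the chromosome around it. On a mixed background, homozygous carriers can keep a stretch of the chromosome of the embryonic stem cell strain that their wild-type littermates carry less often, and the length of this stretch depends on recombination over the generations. Expression differences of genes in that stretch then follow the genotype whatever the targeted protein does, and in these data the knockin allele and any sequence linked to it cannot be told apart. The members have unrelated functions. *Acer2* encodes a Golgi ceramidase that releases sphingosine from ceramide, *Plin2* a coat protein of lipid droplets, *Cyp2j9* a brain cytochrome P450 that oxidises arachidonic acid and *Slc24a2* the neuronal sodium/calcium-potassium exchanger NCKX2. *Dennd4c* encodes an exchange factor for Rab10 and *Haus6* a subunit of the augmin complex, which takes part in microtubule nucleation. *Mllt3* (AF9) encodes a reader of acylated histones in the super elongation complex, and *C630043F03Rik* is a long non-coding RNA of unknown function.

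On GRCm38.p6, the primary assembly of the mm10 build used for the counts, *Rps6* lies on the minus strand at chr4:86854099-86857367. *Dennd4c* (chr4:86748518-86850603, plus strand) ends 3.496 kb before it, tail to tail with *Rps6*. *Acer2* (chr4:86874348-86932524, plus strand) begins 16.98 kb beyond the other end, so that *Acer2* and *Rps6* are transcribed away from each other. *Plin2* (chr4:86626910-86670217) and *Haus6* (chr4:86578855-86612075) lie 183.9 kb and 242 kb from *Rps6* on the *Dennd4c* side. *Slc24a2* (chr4:86983124-87230652) and *Mllt3* (chr4:87769925-88033407) lie 125.8 kb and 912.6 kb away on the *Acer2* side. These 6 genes flank *Rps6* closely. *Cyp2j9* (chr4:96568424-96592523) is 9.71 Mb away and *C630043F03Rik* (chr4:72201244-72203930) 14.65 Mb away, so that the word flanking applies to them only loosely. *Acer2*, the member on which the results turn, has 6 exons in its longest transcript of 4216 bases (GENCODE M21) and overlaps no other annotated gene.

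The sequence before *Acer2* is shown because it faces the altered locus. The stretch printed is chr4:86874164-86874347 (GRCm38.p6, plus strand, RefSeq), 184 bases that end where the annotated gene begins, with the letters of a GC box, GGGCGG read on either strand, in capitals.
*Acer2* upstream: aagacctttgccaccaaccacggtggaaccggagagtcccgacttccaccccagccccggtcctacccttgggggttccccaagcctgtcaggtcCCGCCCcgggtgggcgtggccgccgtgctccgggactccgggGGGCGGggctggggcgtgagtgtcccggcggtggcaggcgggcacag
The window searched was the 250 bases before the listed transcription start of *Acer2*, chr4:86874164-86874413. It runs past the start of the annotated gene, where the printed stretch ends. This window held 2 GC boxes. An E box with the letters CACGTG was not found there on either strand. The same was true of a TATA box, searched as TATAAA. No CCAAT box, searched by the letters of its name, was found. Among 32851 promoters of that length, 32.7% held a GC box (16.7% held at least 2), 6.02% an E box, 12.4% a TATA box and 33.8% a CCAAT box. The *Acer2* window was 73.2% G and C, against a median of 52.4% over all promoters. This is the sequence of the C57BL/6J reference, and the mice's own sequence was not read here.

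The libraries held between 9280589 and 34703044 reads assigned to genes (median 16678553), and the brain RNA *Bc1* took up to 26.1% of them in whole lysates. Values are given as CPM, reads of a gene per 1e6 assigned reads, scaled by TMM factors over the 24 libraries. The read count of *Rps6* did not tell knockin and wild-type libraries apart. *Rps6* stood at 317 to 399 CPM in wild-type and 333 to 384 in knockin Nac heavy libraries. The mean of its genotype differences over all libraries was 0.03 on the log2 scale (SE 0.07). The authors discarded alignments above a set number of mismatches, and whether reads over the altered codons were lost was not measured. Reads of the many processed pseudogenes of *Rps6* may be shared with it, which was not measured either. Markers of medium spiny neurons, the main striatal cell type, were abundant in both regions (7 of 8 listed genes in the table, 3065 to 5939 CPM summed in Nac and 3228 to 6253 in DStr). Those of cortical excitatory neurons (6 of 6) were higher in DStr (716 to 951) than in Nac (68.6 to 212). In Nac, the summed level of none of the 7 marker lists separated the genotypes, and in DStr 1 list did in each fraction (choroid plexus in heavy, astrocytes in total, both higher in knockin). In tissue RNA, fewer cells of a type and less RNA per cell cannot be told apart.

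*Acer2* was lower in rpS6 knockin mice in both regions and in both fractions, at 26.3% to 41.2% of the wild-type mean. In Nac heavy fractions the wild-type libraries held 17.7, 18.0 and 25.1 CPM and the knockin libraries 7.58, 6.34 and 2.05. The genotypes did not overlap, and the log2 difference was -1.89 (SE 0.33). In DStr heavy fractions *Acer2* stood at 24.1, 14.1 and 14.1 CPM in wild-type and at 6.12, 6.65 and 4.45 in knockin libraries. Again every knockin library was below every wild-type one, with a log2 difference of -1.59 (SE 0.32).

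Whole lysates showed the same order for this ceramidase. In DStr lysates, wild-type *Acer2* levels were 7.88, 7.57 and 7.59 CPM, close together, and knockin levels were 1.56, 3.98 and 3.97, a log2 difference of -1.30 (SE 0.44). In Nac lysates, wild-type libraries held 10.0, 8.73 and 10.3 CPM and knockin libraries 5.84, 0.325 and 3.5, a log2 difference of -1.57 (SE 0.54). The value of 0.325 CPM rests on 3 reads in knockin replicate 2, whose library is the second smallest of all. Without it the log2 difference was -1.05, and without knockin replicate 1 it was -2.33. Over the 4 comparisons the mean log2 difference was -1.59 (SE 0.22), a level 3.01-fold lower in knockin mice, and no single library left out moved it beyond -1.79 to -1.46. Reads from *Acer2* were still found in each knockin library, from 3 to 243 of them.

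The *Acer2* difference did not differ between regions or fractions beyond its error. The difference in Nac minus that in DStr was -0.30 (SE 0.44) on the log2 scale, and that in heavy minus that in total was -0.34 (SE 0.44), a value that was 0.05 without replicate 1 of the knockin Nac lysates and 0.03 with limma-voom. These intervals are wide, from about -1.16 to 0.56 and from -1.21 to 0.52 at 95%, so that differences between regions or fractions within them are not excluded. In the plot of CPM by library, the knockin points of *Acer2* lie below the wild-type points in each of the 4 groups, and no other panel has this form.

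**Figure D1:**
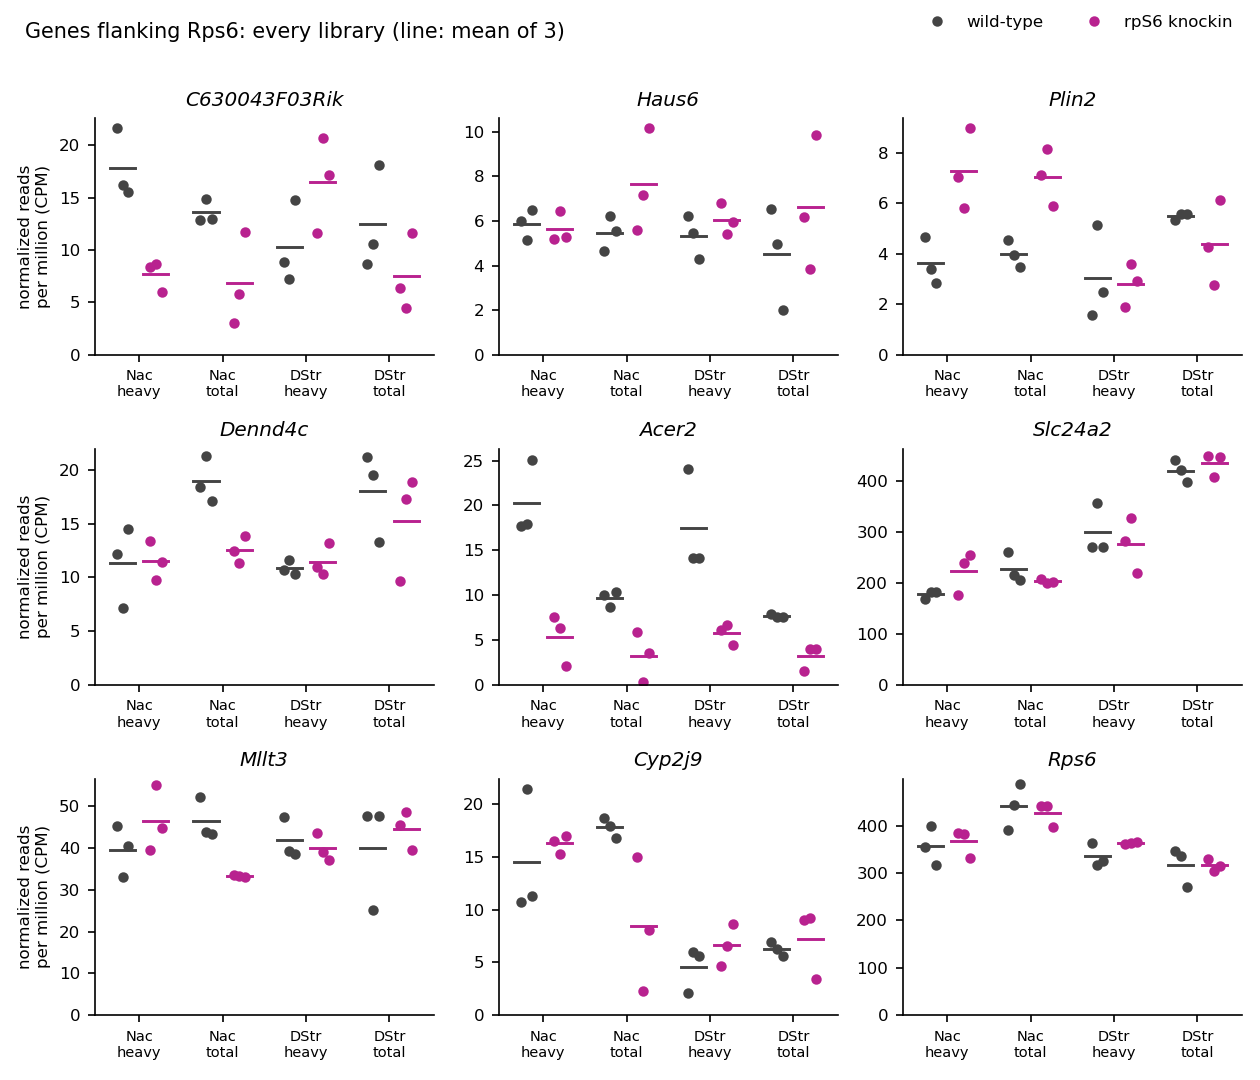
CPM (TMM-scaled, each vertical axis from 0) of the 8 members and *Rps6* in every library, by region (Nac, DStr) and fraction (heavy, total). Points are libraries, 3 per genotype (grey wild-type, magenta rpS6 knockin), and lines are means; for *Acer2* the knockin points lie below the wild-type points in all 4 groups, while *Rps6* overlaps in all 4.

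*Acer2* was the only member with 1 sign in all 4 comparisons, a property shared by 17.5% of the 11975 genes that averaged 50 reads or more (2094). A stricter pattern, the same direction in all 4 comparisons with no overlap between genotypes in any, was found for 6 of these 11975 genes (0.0501%). Since the members were chosen on their genotype differences, nothing is read from the place of *Acer2* in this count. The other 5 genes were *Slitrk4* on chromosome X (higher, mean log2 difference 0.66), *Whrn* on chromosome 4 at 23.4 Mb from *Rps6* (lower, -0.48), *Bcl7b* on chromosome 5 (lower, -0.31), *Npr3* on chromosome 15 (lower, -0.75) and *Strip2* on chromosome 6 (higher, 0.37). The smallest of the 4 differences was 1.30 in size for *Acer2*, 0.54 for *Slitrk4*, 0.29 for *Whrn* and from 0.14 to 0.22 for the other 3. Among all 2094 genes of 1 sign its median was 0.06, and the gene nearest to *Acer2* was *Oxt*, which encodes oxytocin, at 1.27, named after its values were seen, whose genotypes overlapped in 3 of the 4 comparisons.

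**Figure D2:**
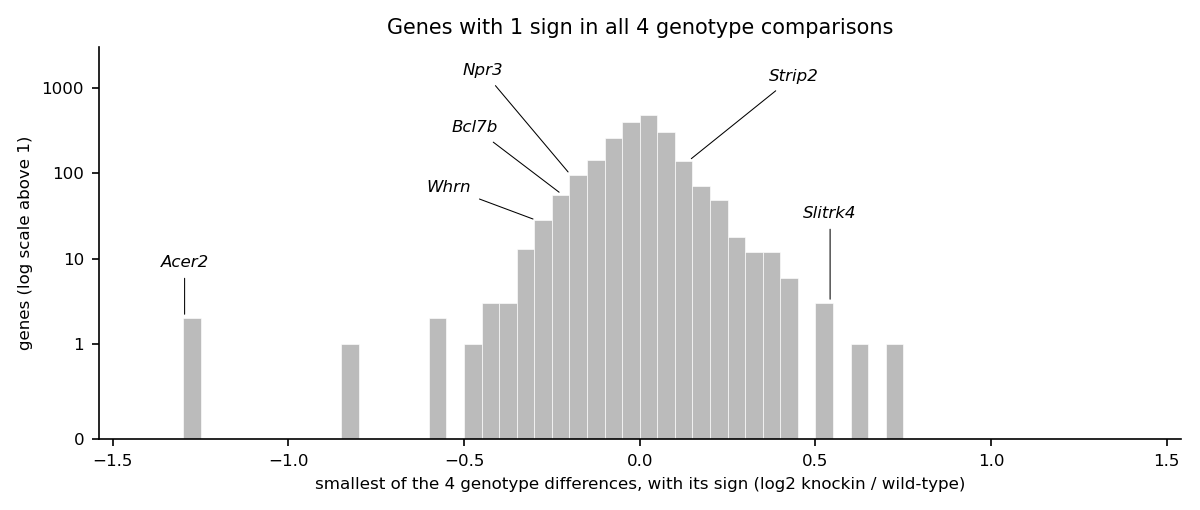
Genes with 1 sign in all 4 genotype comparisons (2094 of 11975 with at least 50 reads on average), by the smallest of their 4 log2 differences with its sign (horizontal axis) and their number (vertical axis, log scale above 1). Named are the 6 genes whose genotypes did not overlap in any comparison; *Acer2* lies at -1.30, in a bar it shares with *Oxt*, and *Slitrk4* at 0.54.

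The members next to *Acer2* did not share its pattern. *Dennd4c*, the closest gene to *Rps6*, held 12.2, 7.17 and 14.5 CPM in wild-type and 13.3, 9.71 and 11.4 in knockin Nac heavy fractions, which overlap. In Nac lysates it stood at 18.4, 21.3 and 17.1 CPM in wild-type and at 12.5, 11.4 and 13.8 in knockin libraries, without overlap (log2 difference -0.60, SE 0.29). In DStr its differences were 0.09 (SE 0.30) in heavy fractions and -0.26 (SE 0.26) in lysates, with overlap in both, so that the genotypes were apart for this Rab10 exchange factor in 1 of the 4 comparisons.

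*Slc24a2*, on the other side of *Acer2* and the most abundant of the 7 members with a transcript length, differed little. Wild-type levels of this exchanger were 441, 423 and 398 CPM in DStr lysates and knockin levels 450, 409 and 448. Its genotypes overlapped in all 4 comparisons, the log2 differences ran from -0.17 to 0.37, and their mean was 0.03 with an SE of 0.07, a 95% interval of -0.12 to 0.17.

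*Plin2*, the lipid droplet protein, was higher in knockin mice in Nac and not in DStr. Nac heavy fractions held 4.67, 3.38 and 2.82 CPM in wild-type and 7.03, 5.79 and 8.98 in knockin mice (log2 difference 1.03, SE 0.30). Nac lysates held 4.53, 3.96 and 3.49 against 7.12, 8.13 and 5.87 (0.80, SE 0.51). In both fractions of Nac all knockin libraries were above all wild-type ones.

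In DStr the order of *Plin2* was not kept. Heavy fractions held 1.55, 5.12 and 2.47 CPM in wild-type and 1.88, 3.59 and 2.92 in knockin mice, and lysates 5.33, 5.57 and 5.57 against 4.25, 2.77 and 6.13. The genotypes overlapped, and the log2 differences were -0.11 (SE 0.65) and -0.34 (SE 0.45). Without wild-type replicate 2 the heavy difference was 0.48. The Nac difference minus the DStr difference of *Plin2* was 1.13 (SE 0.46).

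*C630043F03Rik* was lower in knockin mice in 3 comparisons and higher in the fourth. In Nac heavy fractions this non-coding RNA stood at 21.6, 16.2 and 15.5 CPM in wild-type and at 8.38, 8.66 and 6.01 in knockin mice (log2 difference -1.18, SE 0.23). In Nac lysates it stood at 12.9, 14.9 and 13 against 3.04, 5.74 and 11.7 (-1.0, SE 0.39). The genotypes were apart in both. In DStr heavy fractions the values were 8.85, 7.24 and 14.8 in wild-type and 11.6, 20.6 and 17.1 in knockin mice (0.68, SE 0.30), and in DStr lysates 8.70, 10.5 and 18.1 against 6.41, 4.45 and 11.6 (-0.75, SE 0.34). Both DStr groups overlapped, and the Nac minus DStr difference was -1.08 (SE 0.36). Leaving out 1 library moved the Nac lysate value between -1.65, without knockin replicate 3, and -0.64, without knockin replicate 1. The DStr lysate value moved between -1.21, without knockin replicate 3, and -0.37, without wild-type replicate 3, and the DStr heavy value reached 1.05 without wild-type replicate 3.

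*Cyp2j9*, the P450, was apart in Nac lysates only among these 4 comparisons. It held 18.7, 17.9 and 16.8 CPM in wild-type and 15, 2.28 and 8.04 in knockin lysates of Nac (log2 difference -1.06, SE 0.38). Its lowest library, with 21 reads, is knockin replicate 2, the one in which *Acer2* was also lowest, and without it the difference was -0.62. Without knockin replicate 1 it was -1.79. In the other comparisons the log2 differences were 0.21 (SE 0.25) in Nac heavy, 0.53 (SE 0.45) in DStr heavy and 0.18 (SE 0.39) in DStr total, with overlap in each. Near-identical members of the Cyp2j cluster may share reads with *Cyp2j9*, which was not measured.

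*Mllt3* had a tight difference in 1 comparison. Nac lysates held 52.2, 43.8 and 43.3 CPM of this chromatin reader in wild-type and 33.4, 33.4 and 33.0 in knockin mice (log2 difference -0.49, SE 0.19), without overlap. The other log2 differences were 0.27 (SE 0.18) in Nac heavy, -0.05 (SE 0.20) in DStr heavy and 0.13 (SE 0.18) in DStr total, all with overlap. *Haus6*, the augmin subunit, overlapped between genotypes in all 4 comparisons, with log2 differences of -0.02 (SE 0.26) and 0.48 (SE 0.46) in heavy and total Nac and 0.21 (SE 0.43) and 0.53 (SE 0.44) in heavy and total DStr. It had 24 to 247 reads per library, and the DStr total difference was 0.13 without knockin replicate 3.

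**Figure D3:**
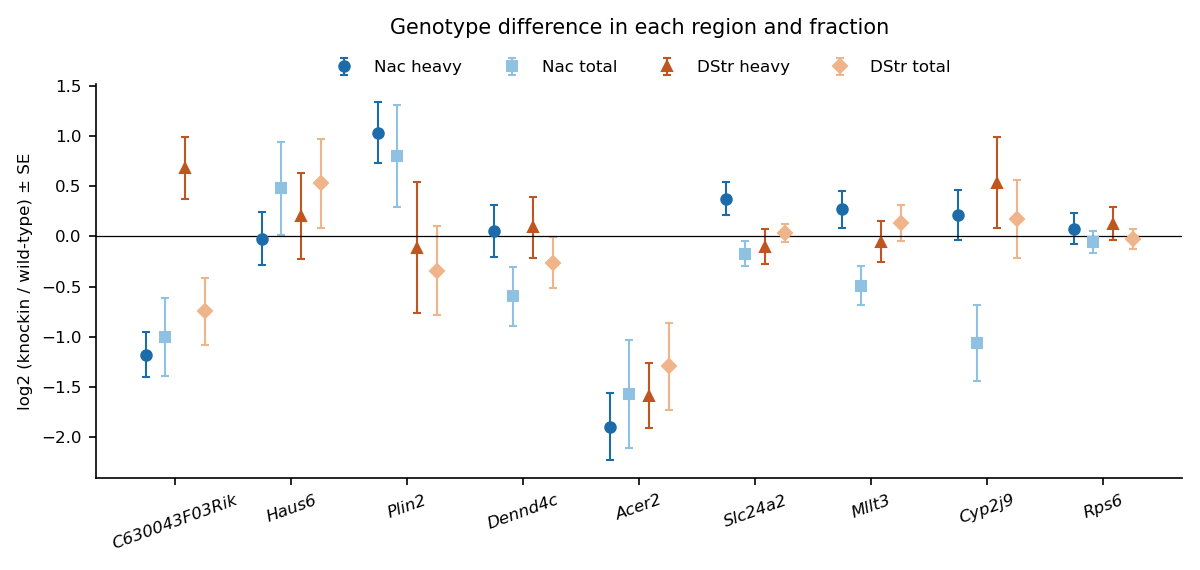
Log2 difference between rpS6 knockin and wild-type libraries (vertical axis; bars are standard errors of the edgeR fit, 3 against 3 libraries) for each member and *Rps6* in Nac heavy, Nac total, DStr heavy and DStr total. The 4 points of *Acer2* lie from -1.89 to -1.30, and each of the other genes has points on both sides of 0.

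Counted by comparison, members without overlap between genotypes were most frequent in Nac lysates. There 5 members were lower (*Acer2*, *Dennd4c*, *Mllt3*, *C630043F03Rik* and *Cyp2j9*) and 1 higher (*Plin2*), where 3.94% of 11238 genes of 50 reads or more were lower and 3.92% higher without overlap. In Nac heavy fractions 2 members were lower (*Acer2* and *C630043F03Rik*) and *Plin2* was higher, against 15.6% and 13.5% of 12477 such genes. In DStr the lower member was *Acer2* alone, in heavy fractions (6.18% of 11916 genes lower, 5.56% higher) and in lysates (6.86% and 8.12% of 11607). The members' median log2 difference was 0.13 in Nac heavy, -0.54 in Nac total, 0.02 in DStr heavy and -0.11 in DStr total, where the medians over all genes tested were -0.01, 0.00, 0.03 and 0.00. The choice of the members used these contrasts, and nothing is read from their counts.

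By edgeR's quasi-likelihood test with Benjamini-Hochberg adjustment at 0.05, 0 of 16227 genes were called in Nac heavy (0%), 1 of 15393 in Nac total (0.00650%), 7 of 15896 in DStr heavy (0.0440%) and 19 of 15601 in DStr total (0.122%). The 0 in Nac heavy does not mean that genotypes were alike there. Before adjustment, 21.7% of its genes had a p under 0.05 by that test. The share was 2.96% in Nac total, 6.42% in DStr heavy and 9.07% in DStr total. DESeq2 called 1090 genes in Nac heavy. For the mean of the 4 differences, 31 of 17365 genes were called (0.179%), 24 lower and 7 higher. The heavy and total libraries of 1 lysate share mice and were fitted here as separate samples, and limma-voom estimated a correlation of 0.0084 within lysates. The difference between regions was called for 41 of 17365 genes (0.236%) and that between fractions for 0 (0%; 1157 with an unadjusted p under 0.05, and 0 by DESeq2). These counts describe all genes, and no call of a member is read from contrasts that served to choose it.

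Genes near *Rps6* that are not members were then examined by position. They are what remains after members were picked on their values, so that they cannot stand for the whole neighbourhood. Within 2 Mb of *Rps6* the table held 41 such genes, 9 had enough reads for the test and 5 had at least 50 reads on average, *Cntln*, *Sh3gl2*, *Rraga*, *Focad* and *Klhl9*. Their mean log2 differences over the 4 comparisons ran from -0.25 for *Cntln*, which encodes a centrosome protein, to 0.07 for *Rraga*, a GTPase of amino acid signalling to mTORC1, with a median of -0.05. None of the 9 was called, the smallest Benjamini-Hochberg adjusted p of edgeR being 0.327 for *Klhl9*, the only one below 0.05 before adjustment. None had genotypes apart in 3 or more comparisons, as 0.443% of the 11975 genes had. *Klhl9* was lower without overlap in 2 comparisons, and *Sh3gl2* and *Rraga* were each higher without overlap in 1. The small mean of *Rraga* joined differences of opposite sign, from 0.55 in Nac heavy to -0.19 in DStr total. *Rraga*, between *Sh3gl2* and *Haus6*, stood at 88.6 to 144 CPM in wild-type and 95.8 to 190 in knockin libraries.

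Within 20 Mb of *Rps6*, 104 genes that are no members were tested, and none of them was called in the comparison over all libraries by edgeR. Of these, 20 (19.2%) had an unadjusted p under 0.05, where 12.1% of 16268 genes on other chromosomes did. The share was 11.1% of 9 genes within 2 Mb, 18.8% of 16 between 2 and 5 Mb, 23.8% of 21 between 5 and 10 Mb and 19.0% of 58 between 10 and 20 Mb. From 20 to 40 Mb it was 15% of 307 genes, and over the rest of the chromosome 13.8% of 647. Whether these shares differ was not tested. The median size of the log2 difference was 0.13 for the 65 genes within 20 Mb with at least 50 reads that are no members, beside 0.11 for 11226 such genes on other chromosomes.

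**Figure D4:**
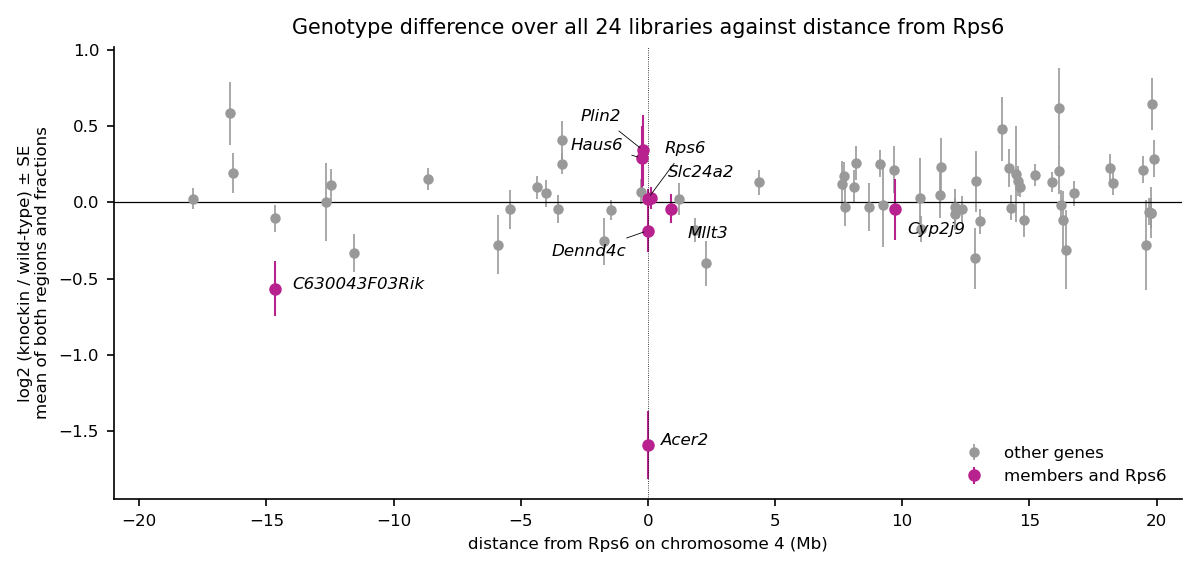
Mean log2 difference between rpS6 knockin and wild-type over both regions and fractions (vertical axis, with standard errors) against the distance from *Rps6* on chromosome 4 in Mb (horizontal axis), for genes within 20 Mb with at least 50 reads on average. Members and *Rps6* are magenta and other genes grey. *Acer2*, 16.98 kb from *Rps6*, lies at -1.59, and the other closely flanking members lie from -0.18 (*Dennd4c*) to 0.34 (*Plin2*).

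Relatives of the members were taken from lists of paralogs and complex partners. The tested relatives of *Cyp2j9* lie near it on chromosome 4 and were also among the genes within 20 Mb of *Rps6* counted above. Of 39 listed genes, 35 were tested, 3 had under 15 reads and 1 was not found by its symbol. None was called over all libraries, where the smallest Benjamini-Hochberg adjusted p of edgeR was 0.148, and before adjustment 5 were below 0.05. The 24 with at least 50 reads had log2 differences from -0.32 to 0.49, with a median of 0.03. Among the other ceramidases, *Acer3*, an alkaline ceramidase of the same family, differed by 0.40 (SE 0.17), the acid ceramidase *Asah1* by 0.17 (SE 0.10) and the neutral ceramidase *Asah2* by 0.11 (SE 0.18), none of which passed the test. *Acer1*, the remaining listed ceramidase, had a log2 difference of -1.52 with an SE of 1.0 at 2.08 reads on average and did not pass either. *Plin3*, a ubiquitous perilipin, differed by 0.26 (SE 0.14), and *Cyp2j6*, beside *Cyp2j9* on chromosome 4, by 0.22 (SE 0.15).

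Differences between regions and between fractions did not enter the choice of members and were tested in the 12 wild-type libraries. Differences within the 12 knockin libraries also hold the genotype differences that served the choice, and are given as a description. Heavy and total libraries of the same lysate share mice and were fitted as separate samples. Adjusted p-values between regions can therefore be too small, and no fit of these differences took the lysate as a random effect. Per kb of transcript, the order of the levels in wild-type Nac lysates was *Slc24a2* (21.6 ± 2.82 CPM per kb, SD, n = 3), *Mllt3* (7.65 ± 0.820), *Cyp2j9* (7.03 ± 0.362), *Dennd4c* (2.38 ± 0.269), *Acer2* (2.30 ± 0.204), *Plin2* (2.12 ± 0.276) and *Haus6* (0.888 ± 0.129). *Mllt3* and *Cyp2j9* were within their spread of each other, as were *Dennd4c*, *Acer2* and *Plin2*. In DStr lysates the order was *Slc24a2* (39.9 ± 2.05), *Mllt3* (6.61 ± 2.15), *Plin2* (2.91 ± 0.0743), *Cyp2j9* (2.48 ± 0.258), *Dennd4c* (2.27 ± 0.523), *Acer2* (1.82 ± 0.0415) and *Haus6* (0.731 ± 0.371), in which the range of *Dennd4c* overlapped those of *Cyp2j9* and *Acer2*. No length was matched for *C630043F03Rik*.

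*Cyp2j9* was higher in Nac than in DStr of wild-type mice, and *Slc24a2* was lower. The log2 difference of *Cyp2j9* levels between regions was 1.57 (SE 0.24), a 2.96-fold higher level in Nac with a Benjamini-Hochberg adjusted p of 6.78e-06 in edgeR. All 6 Nac libraries, heavy and total fractions of the same lysates, were above all 6 DStr libraries. In the 12 knockin libraries the log2 difference was 0.82 (SE 0.28). *Slc24a2* differed by -0.83 (SE 0.10, adjusted p 8.33e-08, same test), a 1.77-fold lower level in Nac, and by -0.65 (SE 0.11) in knockin libraries. These were 2 members called where 19.0% of 16684 genes were. *Acer2* levels did not pass the test between regions (0.27, SE 0.20), and neither did those of the other 5 members. *Rps6* was higher in Nac by 0.27 over both fractions (SE 0.10, adjusted p 0.0496, same test). This call was lost with the size factors of DESeq2 or without any of 8 of the 12 libraries. The paper reports a higher level of this RNA in Nac than in DStr, from total RNA. In wild-type lysates it stood at 391 to 488 CPM in Nac and at 270 to 347 in DStr, without overlap. In wild-type heavy fractions the ranges overlapped, at 317 to 399 CPM in Nac and 318 to 364 in DStr. The regions were not tested within single fractions. *Plin2*, with a regional difference of -0.11 (SE 0.36) in wild-type mice, differed by 1.07 (SE 0.31) in knockin libraries. That knockin value holds the genotype difference between regions described above, and nothing further is read from it.

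Between fractions, *Acer2* was the member most enriched on heavy polysomes. Its log2 difference between heavy fractions and lysates was 1.11 (SE 0.20), a 2.16-fold higher share of the reads in heavy fractions with a Benjamini-Hochberg adjusted p of 2.14e-05 in edgeR, and in both regions all wild-type heavy libraries were above all lysates. In knockin libraries, where *Acer2* had fewer reads, the difference was 0.75 (SE 0.40). *Dennd4c* was lower in heavy fractions by 0.75 (SE 0.20, adjusted p 0.00238) and *Slc24a2* by 0.43 (SE 0.10, adjusted p 7.76e-04) in the same test, and 3 of 8 members were thus called, where 36.0% of 16684 genes were. In knockin libraries *Dennd4c* had a difference of -0.29 (SE 0.21) and *Slc24a2* one of -0.28 (SE 0.11). The other 5 members and *Rps6* (-0.12, SE 0.10) did not pass in wild-type libraries.

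**Figure D5:**
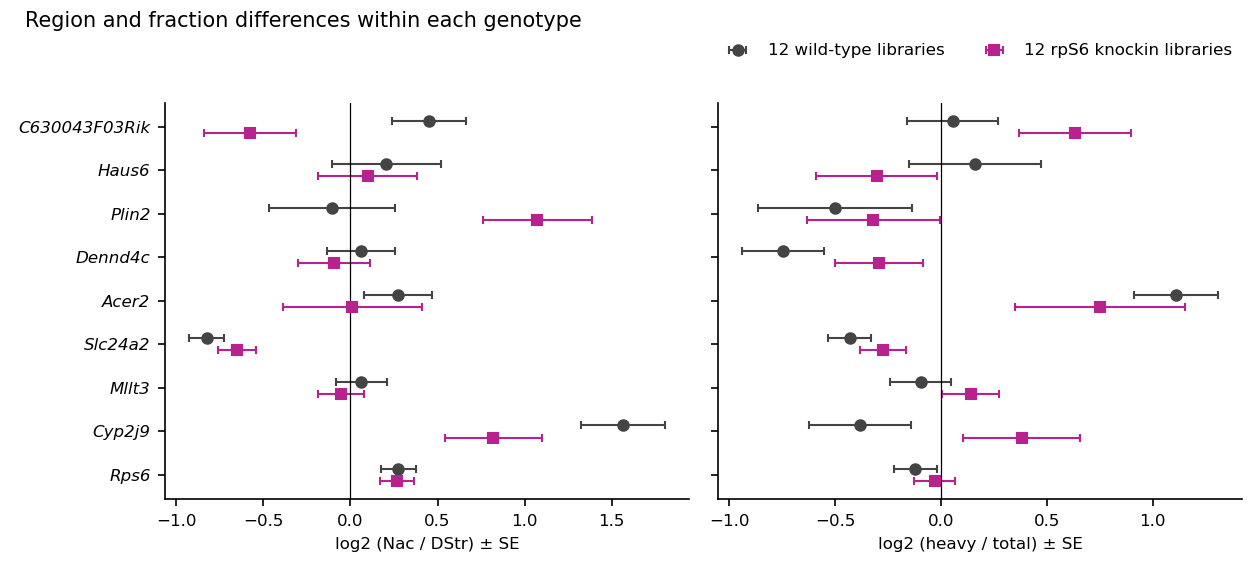
Log2 differences between regions (left, Nac over DStr) and between fractions (right, heavy over total) for each member and *Rps6*, within the 12 wild-type libraries (grey circles) and within the 12 rpS6 knockin libraries (magenta squares), with standard errors. *Cyp2j9* (1.57) and *Slc24a2* (-0.83) stand off 0 between regions and *Acer2* (1.11) between fractions in wild-type mice.

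Over the 24 libraries, the genes whose log2 CPM followed that of *Acer2* most closely, after the mean of each region and fraction was taken out, were *Bex1* on chromosome X (Pearson r 0.838) and *Ndufs7* on chromosome 10 (0.834), a subunit of respiratory complex I. Both were among the 31 genes called over all libraries, each lower in knockin mice. The genotype difference was not taken out, so that a gene lower in knockin mice follows *Acer2* for that reason alone. Nothing further is read from these calls. For the other members the closest genes had r from 0.651 to 0.810 and lay on other chromosomes, except *Tmod1* on chromosome 4 for *Plin2* (0.805). These correlations are a description over 24 libraries that share genotype, depth and preparation, taken from 11979 genes.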

How the data were processed

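RNA of 24 libraries was sequenced from stranded poly(A) preparations. Raw read counts per gene were deposited; the authors aligned to mm10 (GRCm38) by TopHat 2.0.13 over Bowtie 2.2.3 and assigned reads to genes by HTSeq 0.6.1p1. Positions came from RefSeq (GRCm38.p6, 23977 of 24079 genes matched by identifier) and transcript lengths from GENCODE M21 (21209 genes). The members and lists were chosen with earlier results of these data known.

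Counts were analysed with edgeR 4.0.16 (R 4.3.3, limma 3.58.1), by TMM scaling and the quasi-likelihood F test, for genes with at least 15 reads summed over the libraries fitted, with Benjamini-Hochberg adjustment over all of them. Genotypes were compared within each region and fraction (3 against 3 libraries) and over all 24. DESeq2 1.42.0, the tool used by the authors, was an alternative, as were limma-voom with the lysate as random effect, other filters, size factors, removal of a trend on transcript length, a replicate block and each library left out. Counts were also simulated, drawn independently for each library, with 200 genes of more than 50 expected reads changed by 1.5 on the log2 scale. On these data the comparison over all libraries found 199 of 200 among 17122 genes. It also called 21 genes that were not changed. Within each region and fraction, the genotype comparison found from 163 (DStr heavy) to 189 (Nac heavy) of 200. These gave from 7 (DStr heavy and total) to 17 (Nac heavy) other calls. How far this carries over to the real libraries was not tested. Named are the members with *Rps6*, genes with the same non-overlapping pattern, genes by distance from *Rps6* (under 2 Mb), paralogs, and the 2 genes most correlated with each member. Depth was 9280589 to 34703044 assigned reads. Heavy and total libraries of a replicate number come from the same lysates, but their deviations from the group means did not correlate (r from -0.04 to 0.07 over 12 pairs, 0 above 0.1), and other groups share only numbers. Where nothing else is known, p-values measure the spread between these pooled samples. Supplementary tables of the study were not used.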

Additional observations from a re-analysis of the deposited data

Results flagged for a closer look

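The genotype difference itself differed between Nac and DStr for 41 genes, by a test of the difference of the differences in edgeR with Benjamini-Hochberg adjustment. In 39 of them the knockin minus wild-type value was more negative in Nac and in 2 it was more positive. The members' own values of this difference, from -1.08 for *C630043F03Rik* to 1.13 for *Plin2*, were given above as a description.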

How the results depend on the processing

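Every alternative kept the sign of the *Acer2* genotype difference in each region and fraction and over all libraries. Among the genotype values of all members and *Rps6*, which carry no test, 44 of 1332 recomputed values had another sign, and among region and fraction values 15 of 324 had. The numbers of genes called, 0 in Nac heavy, 1 in Nac total, 7 in DStr heavy, 19 in DStr total, 31 over all libraries, 41 for genotype by region and 0 for genotype by fraction, moved far more, and the cause was not tested.

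With every gene of at least 1 read they were 549, 2, 37, 66, 212, 276 and 3 in that order. With the filterByExpr filter they were 0 in Nac total, 1 in DStr heavy, 2 in DStr total, 12 over all libraries and 9 by region. DESeq2 called 1090 in Nac heavy, 17 in DStr heavy, 95 in DStr total, 213 over all and 109 by region. DESeq2 without independent filtering, an alternative chosen after seeing the data like the use of knockin libraries, called 623, 4, 35 and 113 in the first 4 of these. Removal of the length trend gave 1 in Nac heavy, 2 in Nac total, 15 in DStr heavy, 7 in DStr total and 9 over all. A single fit of the 24 libraries gave 813, 0, 0 and 0 in the 4 groups, and limma-voom 9 over all and 1 by region.

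Replicate numbers did not pair the samples (r from -0.27 to 0.29 between genotypes, 2 of 12 above 0.1). With the replicate block, 98 genes were called in Nac heavy, 5 in Nac total, 31 in DStr heavy, 71 in DStr total, 75 by region and 2 by fraction.

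With 1 library left out the counts ran from 0 to 3 in Nac heavy and in Nac total, from 0 (without knockin replicate 2) to 29 (without wild-type replicate 3) in DStr heavy, and from 1 (without knockin replicate 2) to 56 (without wild-type replicate 1) in DStr total. They ran from 6 (without DStr knockin heavy replicate 1) to 180 (without DStr wild-type heavy replicate 2) over all libraries, from 3 (without DStr knockin total replicate 2) to 170 (without DStr wild-type heavy replicate 3) by region, and from 0 to 1 by fraction.

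In knockin instead of wild-type libraries the regional log2 difference changed sign for *Dennd4c* (-0.094), *Plin2* (1.07), *Mllt3* (-0.054) and *C630043F03Rik* (-0.57), and the fraction difference for *Haus6* (-0.30), *Mllt3* (0.14) and *Cyp2j9* (0.38). With 1 wild-type library left out, the regional difference ran from -0.055 (without Nac heavy replicate 3) to 0.17 for *Dennd4c*, from -0.26 to 0.19 (without DStr heavy replicate 2) for *Plin2* and from -0.057 (without DStr total replicate 2) to 0.14 for *Mllt3*. The fraction difference ran from -0.0052 (without DStr total replicate 3) to 0.35 for *Haus6* and from -0.14 (without DStr heavy replicate 3) to 0.25 for *C630043F03Rik*. The regional difference of *C630043F03Rik* passed the test without replicate 3 of either DStr fraction (0.63 and 0.64). None of the members whose sign changed had passed the same test in the 12 wild-type libraries. Low counts limit single values, such as the 3 reads of *Acer2* in knockin replicate 2 of Nac lysates, the 17 of *Plin2* in wild-type replicate 1 of DStr heavy fractions and the 24 of *Haus6* in wild-type replicate 3 of DStr lysates.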

Other observations

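Beyond 20 Mb from *Rps6*, 2 genes of chromosome 4 were called over all libraries, both named after their values were seen. They were 1 of 307 genes tested from 20 to 40 Mb and 1 of 647 over the rest of the chromosome. Among all genes tested, 31 of 17365 (0.179%) were called. *Alad*, an enzyme of haem synthesis 24.3 Mb from *Rps6* on the side of *C630043F03Rik*, was higher in rpS6 knockin mice by 0.49 on the log2 scale (SE 0.11, adjusted p 0.0327, edgeR with Benjamini-Hochberg adjustment), without overlap between genotypes in 3 of the 4 comparisons. *Whrn*, which was lower without overlap in all 4 comparisons, lies on the same side, 23.4 Mb from *Rps6*, and did not pass the test over all libraries (-0.48, SE 0.12, adjusted p 0.0792, same test). *Fbxo2*, a subunit of a ubiquitin ligase 61.3 Mb away on the other side, was lower by 0.42 (SE 0.10, adjusted p 0.0456, same test).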
